A study of Homo sapiens with 12 samples.

Results

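The 10 genes described here belong to a pair of related stress pathways: the transcription factor NFE2L1 with the enzymes NGLY1 and DDI2 that process it, the transcription factor NFE2L2 (NRF2) with its repressor KEAP1, and the antioxidant genes HMOX1, NQO1, GCLM, TXNRD1 and SLC7A11. They are the rows with these gene symbols among the 59276 features of the deposited table, and all 10 were among the 11939 features with a level of at least 1 TPM in at least 3 libraries. Total RNA was sequenced from MM1S, an established human multiple myeloma cell line, in 12 libraries. The study asked how multiple myeloma cells respond when the oligosaccharyltransferase (OST) complex, which attaches N-glycans to proteins in the endoplasmic reticulum, is inhibited by the small molecule NGI-1. There were 4 groups of 3 libraries: day 0 (H1 to H3), and cells kept in 10 μM NGI-1 for 2 days (H4 to H6), 3 days (H7 to H9) or 5 days (H10 to H12). NGI-1 also stands in the treatment label of the day 0 libraries. They are taken here as the untreated cells, as the study's text names them, and the other days have no untreated libraries of their own. All 4 groups are the same unmodified line, and nothing in the labels says that the 3 libraries of a group came from separate cultures, so the p-values measure the spread between these libraries, which may be technical. The study's authors single out KEAP1, DDI2 and NRF1 in these same libraries, and NRF1, which they place after DDI2, is read here as NFE2L1. They also name PHGDH, which is described further on, and others that are only counted in lists, such as PSMB5 and PSAT1. The direction of these genes here is therefore not independent evidence.

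As background, NFE2L1 is made as an N-glycosylated protein of the endoplasmic reticulum membrane and is normally pulled into the cytosol and degraded. NGLY1, a cytosolic peptide:N-glycanase, strips its glycans and DDI2, an aspartic protease, cuts it, which frees a factor that drives proteasome subunit genes when proteasomes are limiting, a pathway of interest in myeloma because these cells rely on proteasome activity. NFE2L2 is held at low levels by KEAP1, an adaptor of the CUL3 ubiquitin ligase, and under oxidative or electrophilic stress it escapes, pairs with small MAF proteins and binds antioxidant response elements beside genes of glutathione synthesis, thioredoxin reduction and detoxification. RNA levels report neither the glycosylation nor the cleavage nor the location of these proteins.

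Promoter sequences of these genes were searched for the core of the antioxidant response element, TGACNNNGC, on both strands, the sequence that NRF2 and NFE2L1 dimers are known to bind. RefSeq promoters (GRCh38.p14, 250 bases before to 50 bases after a transcript start) were matched by symbol for 8 of the 10 genes, with 13 promoters in all. A promoter entry for HMOX1 and SLC7A11 was not used here. The core was present in 4 of the 13 promoters (30.8%), against 4687 of 35116 promoters of the whole table (13.3%). In the gene lists described further on, the same share was 34.8% (8 of 23) for 19S proteasome subunits, 31.0% (9 of 29) for ATF4 target genes, 22.2% for NFE2L1 processing partners (4 of 18) and for other NRF2 target genes (6 of 27), 16.7% (3 of 18) for NRF2 regulators, 14.3% (2 of 14) for 20S subunits, 12.5% (4 of 32) for glutathione and thioredoxin genes and 0 of 5 for superoxide and peroxide enzymes. The 4 promoters with a match belong to KEAP1, GCLM and TXNRD1 and are printed to show where the core lies. These 3 genes were called lower at day 3 under both scalings described below, but so were HMOX1 and DDI2, and the promoter of DDI2 held no match. KEAP1 has another promoter with no match. Each runs 5′ to 3′ on the strand of the gene, and capitals mark the motif. Where the motif lies on the other strand its reverse complement is in capitals.
KEAP1, chr19:10502722-10503021, minus strand: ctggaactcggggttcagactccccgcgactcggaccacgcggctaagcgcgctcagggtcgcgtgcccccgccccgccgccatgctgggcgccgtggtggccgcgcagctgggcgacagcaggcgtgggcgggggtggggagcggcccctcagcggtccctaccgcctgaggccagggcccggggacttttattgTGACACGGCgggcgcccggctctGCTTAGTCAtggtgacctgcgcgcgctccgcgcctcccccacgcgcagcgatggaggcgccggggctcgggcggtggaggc
GCLM, chr1:93909381-93909680, minus strand: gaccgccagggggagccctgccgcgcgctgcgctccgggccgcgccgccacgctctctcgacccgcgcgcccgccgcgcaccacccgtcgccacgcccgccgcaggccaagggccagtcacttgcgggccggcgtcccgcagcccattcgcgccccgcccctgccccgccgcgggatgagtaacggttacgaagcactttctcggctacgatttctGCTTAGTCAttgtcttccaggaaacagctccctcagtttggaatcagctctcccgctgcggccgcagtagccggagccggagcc
TXNRD1, first start, chr12:104215529-104215828, plus strand: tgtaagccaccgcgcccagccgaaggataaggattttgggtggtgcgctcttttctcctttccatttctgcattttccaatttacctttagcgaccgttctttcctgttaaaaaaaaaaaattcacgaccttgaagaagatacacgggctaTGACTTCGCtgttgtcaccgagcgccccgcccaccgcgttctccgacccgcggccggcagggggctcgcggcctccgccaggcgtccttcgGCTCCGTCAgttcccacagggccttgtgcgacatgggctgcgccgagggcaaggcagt
TXNRD1, downstream start, chr12:104286782-104287081, plus strand: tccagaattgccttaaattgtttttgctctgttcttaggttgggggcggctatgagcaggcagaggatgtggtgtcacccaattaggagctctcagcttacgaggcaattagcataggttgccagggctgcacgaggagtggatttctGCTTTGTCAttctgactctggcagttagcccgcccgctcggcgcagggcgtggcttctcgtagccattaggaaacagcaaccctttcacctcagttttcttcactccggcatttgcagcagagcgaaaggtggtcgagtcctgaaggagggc
Distances here run from the transcript start to the base of the match that lies farthest upstream on the strand of the gene. KEAP1 held 2 matches, TGACACGGC at 54 bases upstream of the transcript start and TGACTAAGC, on the other strand, at 31 bases upstream. GCLM held the same letters, TGACTAAGC, on the other strand, at 34 bases upstream. TXNRD1 held TGACTTCGC and TGACGGAGC at its first start, 99 and 8 bases upstream, and TGACAAAGC at its downstream start, 102 bases upstream. None of these overlapped the AP-1-like motif TGANTCA. A match describes letters in this window and is not a measured binding site. Sequence outside the window was not searched, so a promoter with no match may have the core elsewhere.

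The values are log2(TPM + 1) as the authors deposited them, where TPM is a length-corrected share of the RNA sequenced. The labels state more than 60 M paired-end reads per library, but read counts cannot be recovered from TPM, and no counting error can be given. The composition of the libraries changed over time. The 82 ribosomal protein features took 28.1 to 29.2% of the TPM in the day 0 libraries, 33.4 to 33.99% at day 2, 40.2 to 44.3% at day 3 and 47.5 to 49.1% at day 5. Mitochondrially encoded transcripts took 9.33 to 10.7% at day 0 and 13.4 to 14.7% at day 5. Over all 11939 tested features the median log2 change against day 0 was -0.18 at day 2, -0.73 at day 3 and -0.99 at day 5. Each comparison is therefore given on the deposited scale and after rescaling, in which each library was divided by 1 factor so that, among the 5433 features averaging 10 TPM or more, its median log2 deviation from the average library was 0. After rescaling these medians were 0.01, -0.03 and -0.02. Neither scale gives the amount of RNA per cell, and in bulk RNA fewer cells with a transcript and less of it per cell cannot be told apart. All 8 plasma cell markers searched (SDC1, CD38, TNFRSF17, IRF4, PRDM1, XBP1, MZB1 and JCHAIN) were at 1 TPM or more in every library. The summed level of 5 markers each of myeloid, stromal and erythroid cells stayed at or below 1.39 TPM in every library, and 1 of 5 T cell markers, CD3E, reached 1 TPM, with group means of 2.998 to 6.33 TPM.

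On the deposited scale most of the 10 genes were lower in NGI-1. A gene was called when the Benjamini-Hochberg adjusted p of limma's test, in 1 fit of all 4 groups, was under 0.05 and its log2 fold change was over 0.5 in size. At day 2, 4 of the 10 genes were called lower (KEAP1, HMOX1, NQO1 and GCLM), against 23.2% of all tested features, and 0 were called higher, against 8.04%. At day 3, 8 were called lower, against 61.5% of all features, and 0 higher, against 7.59%. At day 5 the same 8 were called lower, against 69.8%, and 0 higher, against 7.73%. At an unadjusted p under 0.05 from limma, 2 genes were higher at day 2, 1 at day 3 and 0 at day 5. The genes not called on these days were NGLY1 and SLC7A11. Since 8 of 10 is close to the share over all features, the fall at day 3 and day 5 does not set these genes apart. The median log2 fold change of the 10 genes was -0.46, -1.13 and -1.06 on the 3 days.

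After rescaling calls went in both directions. At day 2, NQO1 was called lower, against 11.4% of all features, and NGLY1 higher, against 12.9%. At day 3, 5 genes were called lower (DDI2, KEAP1, HMOX1, GCLM and TXNRD1), against 24.2% of all features, and NGLY1 higher, against 23.9%. At day 5, DDI2, GCLM and TXNRD1 were called lower, against 26.9%, and NGLY1 and SLC7A11 higher, against 27.5%. These were 30% and 20% of the 10 genes. The counts at day 2 and day 5 are thus near the shares of all features and do not set these genes apart. Between neighbouring days on the deposited scale, 7 genes were called lower at day 3 than at day 2 (all but NGLY1, NQO1 and SLC7A11), against 55.5% of all features, and 0 higher, against 3.22%. After rescaling 0 of the 10 were called either way, against 13.6% lower and 14.3% higher. At an unadjusted p under 0.05 from limma there were then 2 lower and 2 higher. At day 5 against day 3, 0 of the 10 passed in either direction on the deposited scale, against 13.1% and 0.670% of all features, with 2 lower and 1 higher at an unadjusted p under 0.05 from limma. After rescaling 0 were called lower, against 2.03%, and NFE2L1 and SLC7A11 were called higher, against 4.43%. The comparisons with day 0 share their 3 day 0 libraries.

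**Figure D1:**
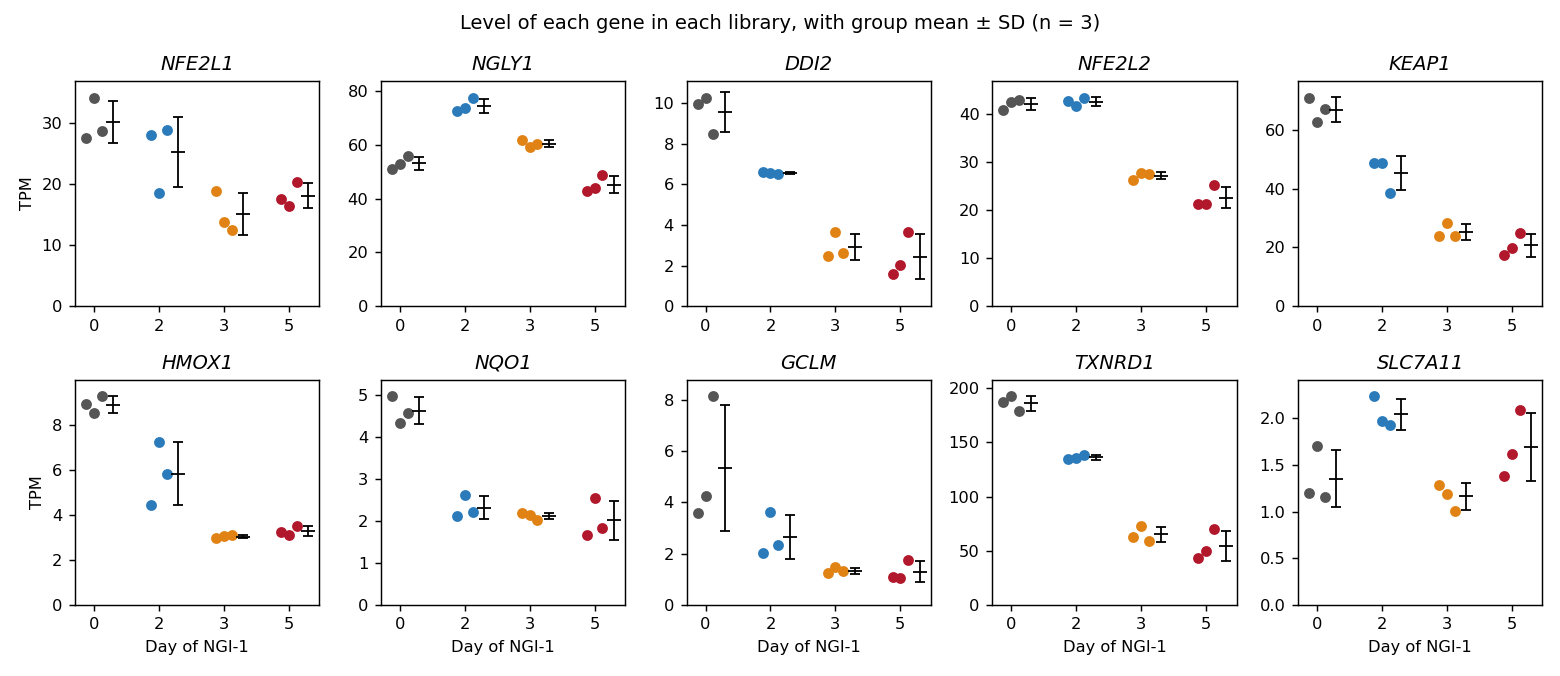
Level in TPM (y axis, from 0) of each of the 10 genes in each of the 12 libraries by day of NGI-1 (x axis). Coloured points are libraries, and the black bar with whiskers is the group mean ± SD (n = 3). TXNRD1 goes from a mean of 186 TPM at day 0 to 54.3 TPM at day 5, whereas NGLY1 is highest at day 2.

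**Figure D2:**
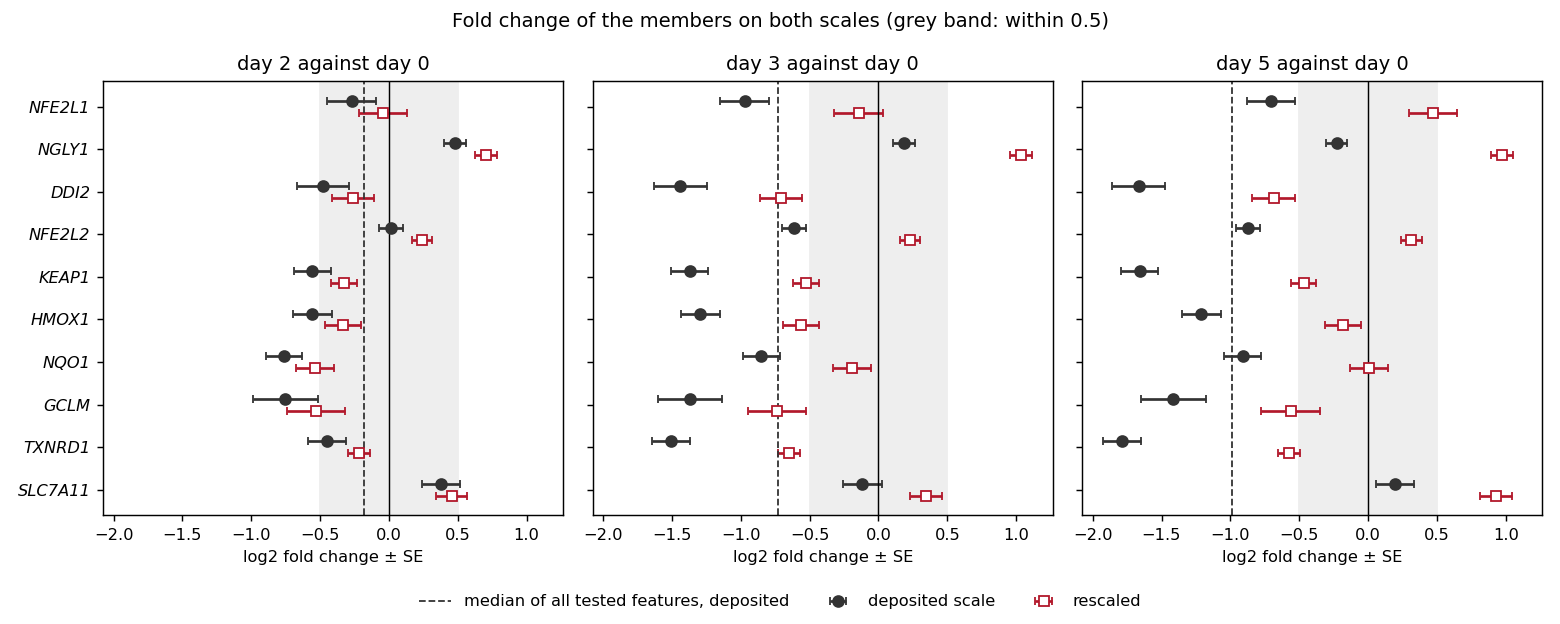
Log2 fold change against day 0 (x axis) ± standard error from limma for each gene, with 1 panel per day, on the deposited scale (filled circles) and after rescaling (open squares). The dashed line is the median of all tested features on the deposited scale, at -0.18, -0.73 and -0.99, and the grey band marks sizes within 0.5. NGLY1, NFE2L2 and SLC7A11 lie to the right of that line on every day.

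NFE2L1 (chr17:48048329-48061487, plus strand, hg38) encodes the membrane-bound factor itself. Its level was 27.7, 34.2 and 28.8 TPM in H1 to H3, 28.1, 18.6 and 28.98 TPM at day 2, 18.9, 13.8 and 12.5 TPM at day 3 and 17.7, 16.4 and 20.4 TPM at day 5. The day 2 libraries overlapped day 0, with H5 apart at the low end, and every day 3 and day 5 library lay below every day 0 library. Against day 0 the log2 fold change was -0.27 at day 2 (95% interval -0.65 to 0.11, adjusted p = 0.231 from limma), -0.97 at day 3 (SE 0.177, adjusted p = 0.000186) and -0.71 at day 5 (SE 0.177, adjusted p = 0.00204). Without H5 the change at day 2 was -0.07, and without H2 it was -0.18. After rescaling NFE2L1 was at -0.04, -0.14 and 0.47, so that its direction at day 5 turned. All 3 day 5 libraries were then above day 0 (adjusted p = 0.0293 from limma, with a change under the 0.5 threshold). The step from day 3 to day 5 was 0.27 on the deposited scale (adjusted p = 0.267) and 0.61 after rescaling (adjusted p = 0.0418), where the groups did not overlap.

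NGLY1 (chr3:25718944-25790039, minus strand), the deglycosylating enzyme, was highest at day 2 on the deposited scale. It stood at 50.9, 52.7 and 55.8 TPM at day 0, 72.4, 73.6 and 77.5 TPM at day 2, 61.8, 59.1 and 60.3 TPM at day 3 and 42.9, 44.1 and 48.6 TPM at day 5. All day 2 and day 3 libraries were above all day 0 libraries, and all day 5 libraries were below them. The log2 fold changes of 0.48 (SE 0.0796, adjusted p = 0.000305 from limma), 0.18 (SE 0.0796, adjusted p = 0.0490) and -0.23 (SE 0.0796, adjusted p = 0.0158) were all under the threshold of 0.5. After rescaling NGLY1 was called higher on all 3 days, at 0.71, 1.03 and 0.97 (SE 0.0817; adjusted p = 2.07e-05, 2.22e-07 and 2.42e-07 from limma), and every treated library was above every day 0 library. On the opposite strand, OXSM shares 536 of the 8326 exonic bases of NGLY1 in GENCODE release 29. OXSM, a mitochondrial fatty acid synthesis enzyme, was at a mean of 23.1, 21.98, 33.6 and 36.2 TPM on the 4 days. In TPM it was highest at day 5, where NGLY1 was lowest. After rescaling the mean log2 level of OXSM was 4.04, 4.18, 5.39 and 5.84 on the 4 days. That of NGLY1 was 5.19, 5.89, 6.22 and 6.16, so that both were lowest at day 0. Whether the libraries kept strand is not given in the sources used here, and the part of OXSM reads in the NGLY1 values was not tested.

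DDI2 (chr1:15617500-15669044, plus strand), the protease that cuts NFE2L1, was lower than day 0 in each treated library. Its level was 9.96, 10.3 and 8.45 TPM at day 0, 6.60, 6.57 and 6.48 TPM at day 2, 2.48, 3.64 and 2.63 TPM at day 3 and 1.56, 2.05 and 3.67 TPM at day 5. The day 2 libraries were close together, and H12 was apart from H10 and H11 at day 5. The log2 fold change was -0.48 at day 2 (adjusted p = 0.0561 from limma), -1.44 at day 3 (adjusted p = 1.12e-05) and -1.67 at day 5 (adjusted p = 1.81e-06), each with SE 0.192. After rescaling it was -0.26, -0.71 and -0.69, with day 3 and day 5 still called (adjusted p = 0.00139 and 0.00152 from limma). RSC1A1 lies on the same strand within DDI2 and shares 1854 of its 12136 exonic bases, so reads there could be given to either. RSC1A1 was at a mean of 3.37 TPM at day 0 and was listed at 0 in all 3 day 5 libraries. With both genes summed, the log2 fold changes were -0.54, -1.64 and -2.07.

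NFE2L2 (chr2:177227595-177392697, minus strand), which encodes NRF2, held its level at day 2 and was lower later on the deposited scale. It was at 40.8, 42.6 and 42.9 TPM at day 0, 42.7, 41.7 and 43.4 TPM at day 2, 26.3, 27.8 and 27.4 TPM at day 3 and 21.3, 21.3 and 25.2 TPM at day 5. The first pair of groups overlapped, and every day 3 and day 5 library was below them. Against day 0 its log2 fold change was 0.02 at day 2 (95% interval -0.17 to 0.21, adjusted p = 0.892 from limma), -0.61 at day 3 (SE 0.0879, adjusted p = 2.19e-05) and -0.87 at day 5 (SE 0.0879, adjusted p = 4.71e-07). After rescaling the direction at day 3 and day 5 turned, to 0.23 and 0.31, and day 2 was at 0.24. All treated libraries were then above all day 0 libraries, with adjusted p = 0.0185, 0.0151 and 0.00192 from limma, each under the fold threshold. The same-strand transcript AC019080.1 shares 1054 of the 5979 exonic bases of NFE2L2 and averaged about 1 TPM over the 12 libraries.

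KEAP1 (chr19:10486120-10503741, minus strand), the adaptor that marks NRF2 for degradation, was lower than day 0 under both scalings. Its level was 70.98, 62.7 and 67.1 TPM at day 0, 48.8, 48.6 and 38.6 TPM at day 2, 23.8, 28.3 and 23.8 TPM at day 3 and 17.3, 19.8 and 24.99 TPM at day 5. No treated library reached the lowest day 0 library, and day 3 lay below day 2. On the log2 scale this was -0.56, -1.37 and -1.66 (SE 0.135; adjusted p = 0.00447, 6.67e-07 and 5.59e-08 from limma). After rescaling it was -0.33, -0.52 and -0.47 (SE 0.0928; adjusted p = 0.0128, 0.000264 and 0.000541 from limma), so that day 3 alone passed the fold threshold while the groups did not overlap on any day.

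Among the antioxidant targets, HMOX1 (chr22:35380361-35394214, plus strand), which breaks down heme, was at 8.92, 8.51 and 9.26 TPM at day 0, 4.42, 7.25 and 5.81 TPM at day 2, 2.96, 3.05 and 3.08 TPM at day 3 and 3.21, 3.11 and 3.51 TPM at day 5. Every treated library was below every day 0 library, the day 2 libraries were spread widely, and day 5 lay just above day 3. The log2 fold change was -0.56, -1.29 and -1.21 (SE 0.141; adjusted p = 0.00604, 1.71e-06 and 2.10e-06 from limma), and after rescaling -0.34, -0.56 and -0.18, with day 3 alone called (adjusted p = 0.00206 from limma).

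NQO1 (chr16:69706996-69726951, minus strand), a quinone reductase often used as a readout of NRF2, was at 4.96, 4.32 and 4.57 TPM at day 0, 2.11, 2.62 and 2.22 TPM at day 2, 2.18, 2.13 and 2.03 TPM at day 3 and 1.66, 2.54 and 1.82 TPM at day 5. Nearly all of its difference from day 0 was present at day 2, and the treated groups overlapped each other. Its log2 fold change was -0.76, -0.85 and -0.91 (SE 0.133; adjusted p = 0.000449, 4.77e-05 and 1.90e-05 from limma). After rescaling day 2 was still called, at -0.54 (adjusted p = 0.00662 from limma), whereas day 3 and day 5 were at -0.19 and 0.0066.

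GCLM (chr1:93885205-93909456, minus strand), the modifier subunit of the first enzyme of glutathione synthesis, was at 3.60, 4.24 and 8.14 TPM at day 0, 2.01, 3.61 and 2.32 TPM at day 2, 1.24, 1.47 and 1.31 TPM at day 3 and 1.07, 1.04 and 1.77 TPM at day 5. H3 was apart at the high end of day 0, and the day 2 libraries overlapped day 0. Its log2 fold change was -0.75, -1.37 and -1.41 (SE 0.235; adjusted p = 0.0187, 0.000113 and 6.68e-05 from limma). The call at day 2 was lost without H3, at -0.45, without H4, at -0.63, and without H6, at -0.70. After rescaling GCLM was at -0.53, -0.74 and -0.56, called at day 3 and day 5 (adjusted p = 0.00809 and 0.0301 from limma).

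TXNRD1 (chr12:104215779-104350305, plus strand), the cytosolic thioredoxin reductase, was the most abundant of the 10 genes in the mean of each group. It was at 187, 193 and 179 TPM at day 0, 134, 136 and 138 TPM at day 2, 62.6, 73.1 and 59.2 TPM at day 3 and 43.2, 50.01 and 69.8 TPM at day 5. The groups fell in steps that did not overlap until day 5, whose highest library H12 lay within the day 3 range. Against day 0 the log2 fold change was -0.45, -1.51 and -1.79 (SE 0.137; adjusted p = 0.0170, 3.24e-07 and 3.26e-08 from limma), the lowest of the 10 genes at day 3 and day 5 on the deposited log2 scale, unless DDI2 is summed with RSC1A1. After rescaling it was -0.22, -0.65 and -0.57, called at day 3 and day 5 (adjusted p = 1.48e-05 and 3.28e-05 from limma). GCLM and DDI2 were then lower than TXNRD1 at day 3, and DDI2 at day 5. The added 1 shrinks the changes of less abundant genes. In mean TPM, GCLM (5.33 to 1.29) and DDI2 (9.56 to 2.43) fell by a larger factor at day 5 than TXNRD1 (186 to 54.3). At day 3 this held for GCLM (to 1.34 TPM) and DDI2 (to 2.92 TPM) as well, and for HMOX1 (8.89 to 3.03 TPM), against 65.0 TPM for TXNRD1.

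SLC7A11 (chr4:138164097-138242349, minus strand), the cystine transporter subunit that supplies cysteine for glutathione, was the least abundant gene at day 0. It was at 1.20, 1.71 and 1.15 TPM at day 0, 2.23, 1.97 and 1.93 TPM at day 2, 1.29, 1.19 and 1.01 TPM at day 3 and 1.38, 1.62 and 2.09 TPM at day 5. Day 2 was above day 0 in every library, day 3 and day 5 overlapped day 0, and day 5 was above day 3. The log2 fold change was 0.38 at day 2 (95% interval 0.08 to 0.68, adjusted p = 0.0406 from limma), -0.12 at day 3 (interval -0.42 to 0.18, adjusted p = 0.451) and 0.20 at day 5 (interval -0.10 to 0.49, adjusted p = 0.202). After rescaling it was 0.46, 0.35 and 0.93, with day 5 called higher (adjusted p = 8.47e-06 from limma). At these levels a fold change on the log2(TPM + 1) scale understates the change in TPM.

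Ratios of a pair of genes within a library do not depend on the scaling but for the added 1. The log2 ratio, of TPM + 1, was compared between the 9 treated and the 3 day 0 libraries by exact permutation, two-sided, with 220 ways to choose 3 of 12 libraries and a smallest p of 0.00455, and with adjustment over 6 ratios. KEAP1 to NFE2L2 went from 0.65 ± 0.121 at day 0 (SD, n = 3) to 0.08 ± 0.213, -0.11 ± 0.114 and -0.13 ± 0.143 on the treated days (SD, n = 3 each). The repressor thus fell against its target by 0.71 (exact permutation p = 0.00455, adjusted p = 0.0136), with all 9 treated libraries, -0.29 to 0.22, below the day 0 range of 0.55 to 0.78. NGLY1 to NFE2L1 was 0.80 ± 0.168 at day 0 (SD, n = 3) and 1.55 ± 0.327, 1.95 ± 0.271 and 1.27 ± 0.0867 on the treated days (SD, n = 3 each), a difference of 0.79 (exact permutation p = 0.00909, adjusted p = 0.0182). All 9 treated libraries, from 1.21 to 2.19, were above the day 0 maximum of 0.93.

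The other 4 ratios included partner subunits. SLC7A11 to SLC3A2, the light and heavy chain of the cystine transporter, was -5.74 ± 0.189 at day 0 (SD, n = 3) and -7.15 ± 0.0459, -6.98 ± 0.115 and -6.99 ± 0.104 on the treated days (SD, n = 3 each), lower by 1.30 in the mean (exact permutation p = 0.00455, adjusted p = 0.0136). This came with a rise of SLC3A2 from a mean of 124 TPM at day 0 to 431, 272 and 343 TPM. GCLM to GCLC, the modifier and catalytic subunit of the glutathione-making enzyme, was higher by 0.38 (exact permutation p = 0.236, adjusted p = 0.284) and its day 0 libraries spread from -2.24 to -0.97. The difference was 0.13 without H1, 0.76 without H3 and 0.17 with a pseudocount of 0.1. DDI2 to NFE2L1 was lower by 0.55 (exact permutation p = 0.0727, adjusted p = 0.109). By day it was at -1.56 ± 0.152, -1.77 ± 0.344, -2.03 ± 0.439 and -2.52 ± 0.334 on the 4 days (SD, n = 3 each). The day 3 and day 5 libraries lay below the day 0 libraries, and the day 2 libraries overlapped them. NFE2L1 to NFE2L2 was at -0.47 ± 0.140, -0.76 ± 0.314, -0.83 ± 0.332 and -0.30 ± 0.0497 on the 4 days (SD, n = 3 each), a difference of -0.16 (exact permutation p = 0.459, adjusted p = 0.459), which was -0.08 without H2 and -0.10 without H5 or H9.

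**Figure D3:**
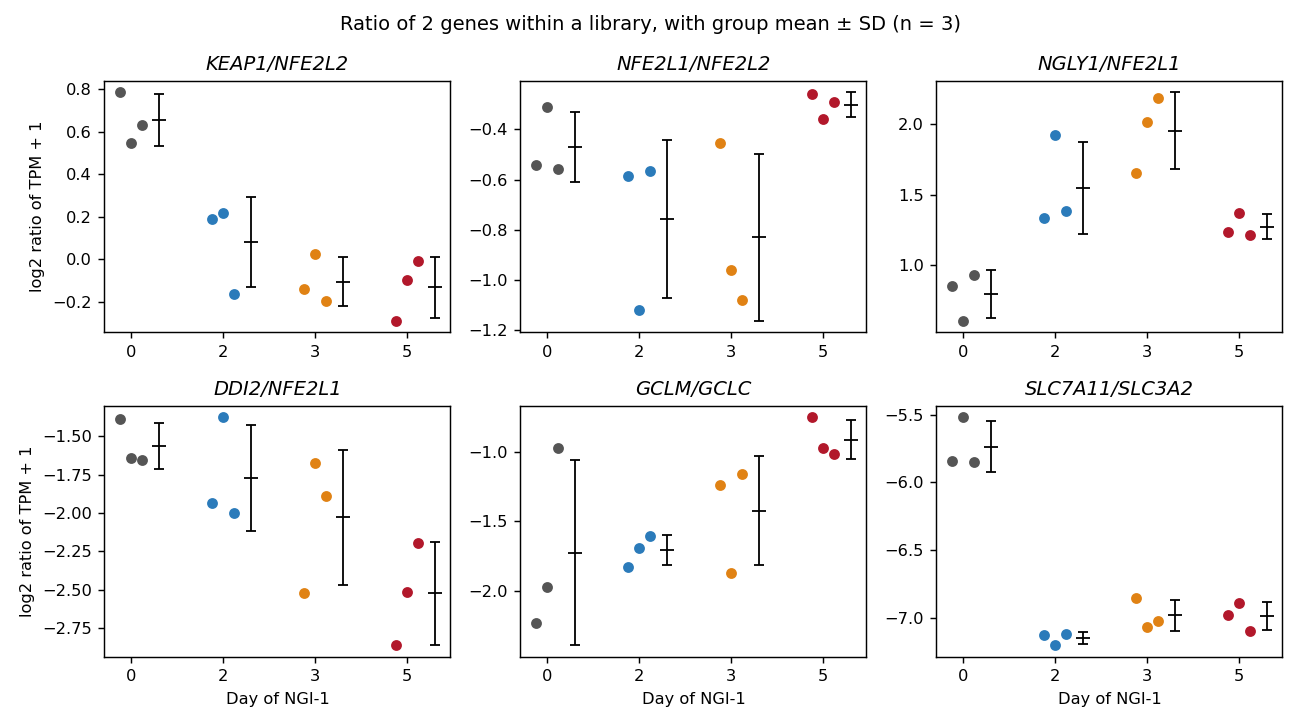
Log2 ratio of TPM + 1 of a pair of genes within each library (y axis) by day of NGI-1 (x axis), with points for libraries and black bars for the group mean ± SD (n = 3). All 9 treated libraries lie below the day 0 libraries for KEAP1/NFE2L2 and SLC7A11/SLC3A2 and above them for NGLY1/NFE2L1.

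The order of the levels within the group of 10 changed with time. At day 0 it ran TXNRD1 (mean 186 TPM), KEAP1 (66.9), NGLY1 (53.1), NFE2L2 (42.1), NFE2L1 (30.2), DDI2 (9.56), HMOX1 (8.89), GCLM (5.33), NQO1 (4.62) and SLC7A11 (1.35). Only the neighbours DDI2 and HMOX1, and GCLM and NQO1, overlapped in their libraries. At day 5 TXNRD1 (54.3 TPM) and NGLY1 (45.2) overlapped at the top, followed by NFE2L2 (22.6), KEAP1 (20.7) and NFE2L1 (18.2), each overlapping the next. KEAP1 had thus passed from above NGLY1 and NFE2L2, with no overlap at day 0, to below NGLY1 and into the range of NFE2L2. HMOX1 (3.28), DDI2 (2.43), NQO1 (2.01), SLC7A11 (1.70) and GCLM (1.29) formed the low end, where every neighbouring pair overlapped. At day 5, H12 was the highest of its 3 libraries for 9 of the 10 genes, NQO1 being the exception. The rescaling factor, set by the typical feature of a library, was also highest in H12, at 0.738 against 0.573 in H10 and 0.620 in H11. The share of all features highest in H12 was not counted, so this is not read as a trait of these genes. The number of genes called lower at day 5 was 8 without H12 as well.

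The other genes of these pathways were read from lists drawn from general knowledge. The share of each list is read against all tested features, of which 69.8% fell and 7.73% rose at day 5 on the deposited scale, with 26.9% and 27.5% once rescaled. At day 5 on the deposited scale, 10 of 11 tested NFE2L1 processing partners (the extraction and ubiquitin ligase machinery; 90.9%) fell and 0 rose, with a median log2 change of -1.69, beside -0.99 for all features. After rescaling 6 (54.5%) were lower and 1 (9.09%) higher. The largest falls were in CUL1, a scaffold of the SCF ubiquitin ligases, at -2.33 (SE 0.152, -1.16 after rescaling), and in NPLOC4, a cofactor of the VCP segregase that extracts proteins from the endoplasmic reticulum, at -2.09 (SE 0.237, -0.95 after rescaling). Of 12 NRF2 regulators and dimer partners 8 (66.7%) were called lower and 1 (8.33%) higher, both near the shares of all features, with 1 (8.33%) and 4 (33.3%) after rescaling. SQSTM1, the autophagy receptor that can sequester KEAP1, was the one called higher, at 0.74 (SE 0.0915, adjusted p = 3.92e-06 from limma, 1.95 after rescaling). CUL3, the ligase scaffold that KEAP1 recruits, was at -1.85 (-0.68 after rescaling), and GSK3B, a kinase that marks NRF2 for another ligase, at -1.57 (-0.46).

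Among 26 tested glutathione and thioredoxin genes, 20 (76.9%) fell and 3 (11.5%) rose at day 5, near the 69.8% and 7.73% of all features, and the median was -1.15. After rescaling these were 11 (42.3%) and 8 (30.8%), the latter near the 27.5% of all features. SLC3A2 was higher at 1.44 (SE 0.110) and the glutaredoxin GLRX at 1.42 (SE 0.0831), both with no overlap with day 0, whereas GGCT, which breaks down gamma-glutamyl peptides, was lower at -2.58 (SE 0.111) and the mitochondrial glutaredoxin GLRX5 at -2.38 (SE 0.131). After rescaling these 4 were at 2.66, 2.60, -1.40 and -1.20. Of 21 further NRF2 target genes, 19 (90.5%) fell and 0 rose, and the median was -1.10. After rescaling these were 6 (28.6%, against 26.9% of all features) and 3 (14.3%). AKR1B1, an aldo-keto reductase, was at -2.36 (-1.15 after rescaling). Of 3 superoxide and peroxide enzymes, 2 were called lower and 0 higher (1 and 1 after rescaling). SOD2, the mitochondrial superoxide dismutase, was at -2.27 (-1.07 after rescaling), and CAT, catalase, at -0.90, which turned to 0.26 after rescaling.

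ATF4 target genes belong to a stress program that also drives SLC7A11. Of 17 tested, with ATF4 itself among them, 7 (41.2%) fell and 2 (11.8%) rose at day 5 on the deposited scale (median -0.41). After rescaling 1 (5.88%) was lower and 12 (70.6%) were higher (median 0.81), against 26.9% and 27.5% of all features. No test compared the lists. DDIT3, the stress factor CHOP, was higher at 1.86 (SE 0.113, 3.02 after rescaling) and ATF3 at 0.85 (SE 0.157, 1.86 after rescaling). SLC7A5, a large neutral amino acid transporter, was lower at -2.12 (-0.92 after rescaling), and PHGDH, the first enzyme of serine synthesis, at -1.06, which turned to 0.14 after rescaling. Proteasome subunits are the best known targets of NFE2L1. Of 14 subunits of the 20S core 10 (71.4%) fell and 0 rose at day 5. After rescaling these were 2 (14.3%) and 4 (28.6%). The 71.4% lower and the 28.6% higher are near the shares of all features. The largest falls were in PSMB2, at -2.47, and PSMB6, at -2.04 (-1.29 and -0.83 after rescaling). Of 19 subunits of the 19S regulator 17 (89.5%) fell and 2 (10.5%) rose. After rescaling these were 10 (52.6%) and 3 (15.8%). PSMD11 was at -2.93 and PSMD2 at -2.68, whereas SEM1, a small lid subunit that also binds BRCA2, was at 0.85 and PSMC6, a base ATPase, at 0.66. After rescaling these 4 were at -1.75, -1.49, 2.07 and 1.88. In the 4 lists with 0 genes called higher, the genes higher at an unadjusted p under 0.05 from limma were 2 of the 20S core subunits and 0 in the other 3. The genes named in these lists were picked as the called genes with the largest changes at day 5. On the deposited scale their adjusted p was at most 0.000168 from limma, and their day 5 libraries did not overlap day 0. Both are bound up with that choice and are no added evidence.

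At day 2, when 23.2% of all tested features were called lower and 8.04% higher on the deposited scale, 11 of 14 subunits of the 20S core (78.6%) and 14 of 19 of the 19S regulator (73.7%) were called lower and 0 higher, with medians of -0.61 and -0.69 beside -0.18 for all features. After rescaling 2 (14.3%) and 8 (42.1%) were lower, against 11.4% of all features, and again 0 higher, against 12.9% of all features. At an unadjusted p under 0.05 from limma, 0 subunits were higher on the deposited scale, and after rescaling 0 of the 20S core and 1 of the 19S regulator. Of the glutathione and thioredoxin genes 14 of 26 (53.8%) were lower and 2 (7.69%) higher at day 2, with 9 (34.6%) and 3 (11.5%) after rescaling. Of the NFE2L1 processing partners 6 of 11 (54.5%) were lower, with 1 (9.09%) lower and 2 (18.2%) higher after rescaling. Of the other NRF2 targets 5 of 21 (23.8%) were lower, near the share of all features. Of the ATF4 target genes 0 of 17 were lower at day 2, also at an unadjusted p under 0.05 from limma, and 4 (23.5%) higher, with 8 (47.1%) higher after rescaling. No test compared these lists with other features.

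**Figure D4:**
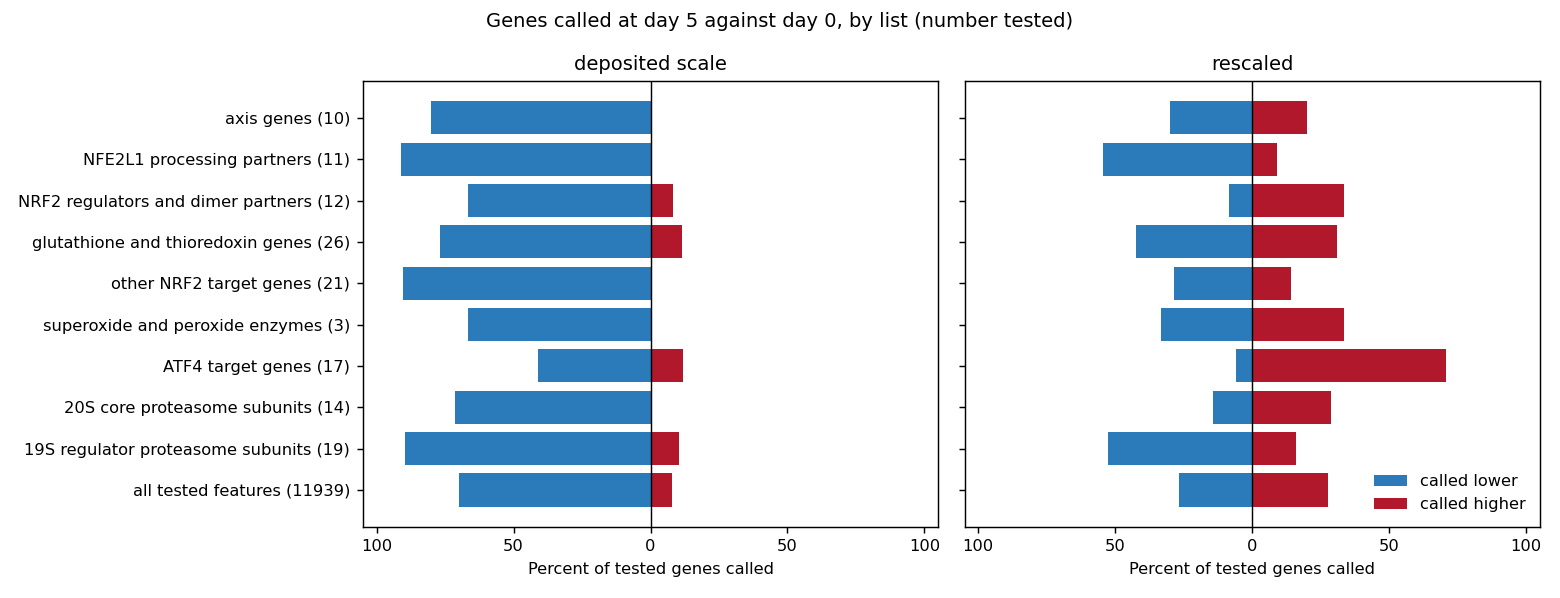
Percent of the tested genes of each list called lower (blue, to the left) and higher (red, to the right) at day 5 against day 0, on the deposited scale (left panel) and after rescaling (right panel), with the number tested in brackets. The bottom bar gives all 11939 tested features, at 69.8% lower and 7.73% higher on the deposited scale and 26.9% and 27.5% after rescaling.

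The features whose course was nearest to those of the regulators were found by the root mean square difference over the 12 libraries, on rescaled log2 values centred on day 0, among 5432 other features that averaged 10 TPM or more. For KEAP1 these were ECSIT, UNC45A and MCRS1, at 0.0663, 0.0696 and 0.0798, against a median of 0.535 over all features compared. For NFE2L2 they were BNIP2, PPM1A and TMX3, at 0.0730, 0.0732 and 0.0739, against a median of 0.548. For NFE2L1 the nearest were ARF6, BTAF1 and EIF1B, at 0.214, 0.216 and 0.218, against a median of 0.596. These distances are larger, but they are taken over single libraries, and NFE2L1 spread widely within groups. Its rescaled log2 SDs were 0.149, 0.357, 0.309 and 0.110 on the 4 days (n = 3 each). The largest were 0.0965 for NFE2L2 and 0.172 for KEAP1. The larger distances therefore do not show that the course of NFE2L1 was unlike that of other features.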

How the data were processed

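Per the labels, total RNA of MM1S cells was sequenced in paired-end mode to more than 60 M reads per library, and FastQC, Trimmomatic, STAR, Salmon and the hg38 build were used, with no versions, roles or settings given in the sources used here. The authors deposited 1 table of log2(TPM + 1) for 59276 features by symbol. Undoing the log2 gave the same total in all 12 libraries, so depth cannot be recovered and precision rests on 3 libraries per group.

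Features of at least 1 TPM in at least 3 libraries were fitted with limma 3.58.1 in R 4.3.3 (1 mean per group, mean-variance trend, Benjamini-Hochberg adjustment per contrast, two-sided). Ratios were compared by exact permutation. Coordinates came from GENCODE release 29, promoters from RefSeq (GRCh38.p14), and figures from matplotlib 3.10.9 in Python 3.11.15.

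The 10 genes, the lists and the tests were chosen with earlier results of these data known. Named besides the 10 were the second gene of each ratio, up to 2 called genes per direction and list with the largest change at day 5, and the 3 nearest profiles of 3 regulators. One gene that this rule names is not reported here. Alternatives are given at the end.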

Additional observations from a re-analysis of the deposited data

Results flagged for a closer look

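The change against day 0 differed between day 3 and day 2 for 7 of the 10 genes on the deposited scale, by limma's test of the difference itself. The log2 difference, day 3 minus day 2, was -0.70 for NFE2L1 (adjusted p = 0.00293 from limma), -0.96 for DDI2, -0.63 for NFE2L2, -0.82 for KEAP1, -0.74 for HMOX1, -0.62 for GCLM (adjusted p = 0.0294 from limma) and -1.06 for TXNRD1. Over all tested features the median of this difference was -0.57, and 55.5% of them were called lower. After rescaling the same 7 differences were -0.10, -0.45, -0.01, -0.20, -0.23, -0.21 and -0.43, and none of them was called. The summed share of ribosomal protein transcripts moved over the same step, from 33.4 to 33.99% of the TPM at day 2 to 40.2 to 44.3% at day 3, and its part in these differences was not tested.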

How the results depend on the processing

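Rescaling was the alternative that changed the results most. At day 2 it called 1 gene lower and 1 higher, at day 3 it called 5 lower and 1 higher, and at day 5 it called 3 lower and 2 higher. It called 0 lower at day 3 against day 2 and 2 higher at day 5 against day 3. Under it the sign turned for NFE2L2 and SLC7A11 at day 3 (0.23 and 0.35), for NFE2L1, NGLY1, NFE2L2, NQO1, CAT and PHGDH at day 5 (0.47, 0.97, 0.31, 0.0066, 0.26 and 0.14), for NGLY1 and NQO1 at day 3 against day 2 (0.33 and 0.35), and for DDI2, NFE2L2, KEAP1, NQO1, GCLM and TXNRD1 at day 5 against day 3 (0.022, 0.085, 0.057, 0.20, 0.17 and 0.075). Without the 20 most abundant features, 2 genes were lower and 1 higher at day 2, and SLC7A11 at day 3 (0.027), NGLY1 at day 5 (0.089) and NQO1 at day 3 against day 2 (0.023) turned. A minimum of 5 TPM gave 2 genes lower at day 2, with GCLM, NQO1 and SLC7A11 not tested. A fold threshold of 1 gave 0, 5 and 5 genes lower on the 3 days and 1 at day 3 against day 2.

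Leaving out 1 library in turn gave 2 to 4 genes lower and 0 to 1 higher at day 2, 8 lower at day 3 and at day 5 each time, and 6 (without H9) to 8 lower at day 3 against day 2. There SLC7A11 was called without H6 (-0.52) and GCLM was not called without H5 (-0.44). At day 2 there were 2 lower without H4 and without H6. HMOX1 lost its call without H4 (-0.40) and KEAP1 without H6 (-0.45), and NGLY1 was called higher without H3 (0.52) and H4 (0.50). Small changes turned sign for NFE2L2 at day 2 (-0.0058 without H1 to 0.032 without H5) and at day 5 against day 3 for NQO1 (-0.18 without H11 to 0.023 without H10) and GCLM (-0.19 without H12 to 0.034 without H11). The ratio differences ran from -0.76 to -0.64 for KEAP1/NFE2L2, 0.70 to 0.86 for NGLY1/NFE2L1, -1.36 to -1.19 for SLC7A11/SLC3A2 -0.64 to -0.45 for DDI2/NFE2L1, 0.13 to 0.76 for GCLM/GCLC and -0.21 to -0.08 for NFE2L1/NFE2L2. Without H2 the exact permutation test on 55 choices gave adjusted p = 0.0545, 0.109 and 0.0545 for the first 3, and without H5 DDI2/NFE2L1 passed, at 0.0364. The smallest p that the test can give is larger with 55 choices than with 220. For the first 3 ratios the 9 treated libraries still did not overlap the day 0 libraries that were left. The p-values without H2 therefore do not by themselves show that these differences rest on H2. The causes of these changes were not tested. The fit without a filter used features above 0 in more than 2 libraries, since a variance of 0 cannot be moderated. No paired analysis was possible because the labels number the libraries H1 to H12 and give no replicate number shared between groups.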

Other observations

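NFE2L3, the third member of the NFE2L family, was not among the genes chosen and was looked at after the other values were seen. It was at 9.88, 10.96 and 12.5 TPM in the day 0 libraries, 19.3, 10.8 and 12.96 TPM at day 2, 12.1, 11.4 and 13.7 TPM at day 3 and 5.33, 5.70 and 6.99 TPM at day 5. Its log2 fold change against day 0 was 0.31, 0.15 and -0.79, and 0.51, 0.94 and 0.30 after rescaling. From day 3 to day 5 it was called lower under both scalings, at -0.94 and -0.64 (adjusted p = 0.0336 from limma after rescaling). Over the same step NFE2L1 was at 0.27 and 0.61.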
